A study of Mus musculus with 16 samples.

Results

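Axon guidance ligands and receptors are the secreted and membrane-bound cues, and the proteins that sense them, by which growing axons and migrating cells find their way. Genes were taken by symbol from the semaphorin (classes 3 to 7), neuropilin, plexin A to D, slit, robo, netrin, Dcc and Unc5, ephrin and Eph families. Where a gene had several entries on the array, the entry with the highest mean was used. The symbols matched 68 of the 22180 genes measured. They comprise 20 semaphorins, 2 neuropilins, 9 plexins, 3 slits, 4 robos, 3 netrins, 5 netrin receptors, 8 ephrins and 13 Eph receptors, which makes 34 ligands and 33 receptors. The remaining gene is Plxna4os1, a noncoding RNA that the symbol rule caught and that is neither ligand nor receptor. The Eph receptor Ephb2 was not among the genes matched, so that family is not complete here.

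All samples derive from the mouse stem cell line iGPA-Myo7a:mVenus. It carries Gfi1, Pou4f3 and Atoh1, 3 transcription factors of hair cell development, under the control of doxycycline (Dox), and a Myo7a reporter that makes hair cell-like cells fluoresce with mVenus. The line was grown as floating embryoid bodies (EBs), balls of cells that differentiate into many tissues. The sorted, mVenus-positive induced hair cell-like cells (iHCs) were collected at day 12 after Dox and retinoic acid (RA) or after Dox alone, and at day 8 after Dox and RA or after Dox alone, with 3 arrays in each of these 4 groups. Dox, with or without RA, was given from day 4, so day 12 cells had 8 days of treatment and day 8 cells had 4 days. Control EBs of the same line had neither Dox nor RA and were not sorted, with 2 arrays at day 12 and 2 at day 8. Treatment and sorting therefore cannot be told apart in any comparison with control EBs. All 6 groups carry the inducible factors and the reporter and come from a single stem cell line.

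Semaphorins signal through plexins, and most class 3 semaphorins need a neuropilin as co-receptor. Slits bind robo receptors and mostly repel. Netrins attract through Dcc and repel through Unc5 receptors. Ephrins and Eph receptors meet at cell contacts, where both partners can signal, and A-type ephrins are tethered by a lipid anchor while B-type ephrins span the membrane. The same proteins shape blood vessels, heart and connective tissue, and in the inner ear they are known for steering the axons of spiral ganglion neurons that contact hair cells. A hair cell has no axon. Whether the sorted hair cell-like cells form axon-like processes was not tested, so the genes are described here only by their RNA signal.

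The guidance genes split into a group that was higher and a group that was lower in iHCs. Values are log2 signal after RMA, so 1 unit is a 2-fold difference, and ± beside a difference is its standard error. A gene was called at a Benjamini-Hochberg adjusted p under 0.05 from limma, fitted over all 22180 genes and 16 arrays. In Dox+RA iHCs at day 12, 18 of the 68 genes were called higher than in control EBs and 33 lower, against 22.4% and 22.4% of all genes and 44.8% in either direction. Dox iHCs at day 12 had 18 higher and 29 lower, against 19.2% and 21.7% of all genes (40.8% in all). Dox+RA iHCs at day 8 had 21 higher and 24 lower, against 19.6% and 22.0% (41.6% in all). Dox iHCs at day 8 had 23 higher and 24 lower, against 15.7% and 18.9% (34.6% in all). The median difference of the 68 genes was -0.35 and -0.22 in Dox+RA and Dox iHCs at day 12, where the median of all genes was 0.07 and 0.02. At day 8 it was 0.03 and 0.04, where the median of all genes was 0.05 and 0.02. The 4 comparisons use 2 pairs of control arrays, each pair shared by the Dox+RA and the Dox comparison of its day.

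Of the 68 genes, 15 (22.1%) were called higher in all 4 comparisons, where 11.3% of all genes were. They were the semaphorins Sema3b, Sema3e, Sema4d, Sema4f, Sema6b, Sema6c and Sema7a, the plexins Plxnb1, Plxnb3 and Plxnd1, and Slit1, Robo2, Unc5a, Unc5d and Epha2. Another 21 (30.9%) were called lower in all 4, where 14.5% of all genes were. Those were Nrp1, Nrp2, Plxna2, Plxna4, Plxnb2, Plxnc1, Sema3a, Sema5b, Slit3, Robo4, Ntn3, Unc5c, Epha3, Epha4, Ephb4, Efna1, Efna2, Efna4, Efnb1, Efnb2 and Efnb3. A further 9 were higher in 1 to 3 of the comparisons, 12 were lower in 1 to 3, and Sema3c and Slit2 were called in opposite directions in different comparisons, where 0.528% of all genes were. No call was made for the other 9 genes, where 43.3% of all genes had none. Mean signal lay above that of the median gene (5.25) for 55 of the 68. The shares over all genes given throughout are not matched for signal, and shares among genes of like signal were not computed. Of the 34 ligands, 8 were higher and 10 lower in all 4 comparisons, and of the 33 receptors 7 were higher and 11 lower.

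**Figure D1:**
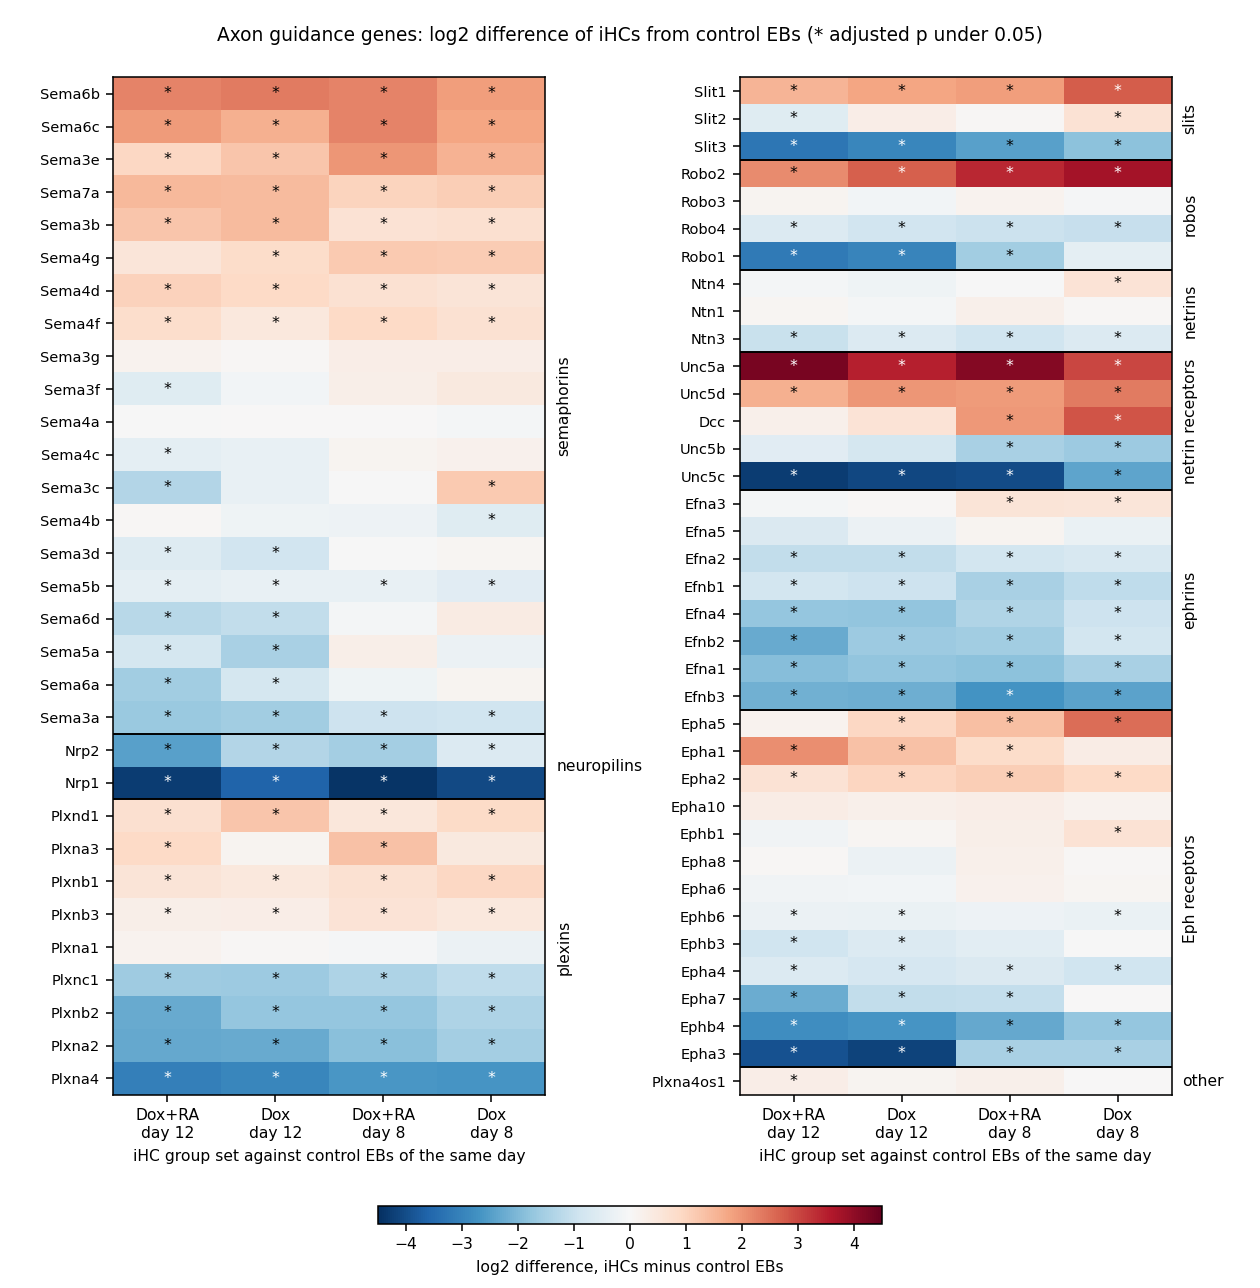
Colour gives the log2 difference of each iHC group (columns) from control EBs of the same day for all 68 genes (rows), grouped by family, with red for higher and blue for lower in iHCs and a star for an adjusted p under 0.05. Unc5a and Robo2 hold the darkest reds and Nrp1, Unc5c and Epha3 the darkest blues, and 6 of the 8 ephrins are blue with a star in all 4 columns.

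The sorted cells carried the markers of their label. All 13 hair cell markers were called higher in iHCs in all 4 comparisons. They include the 3 induced factors and Myo7a, whose reporter was used for sorting, and the treatment and the sort select for these. The mean log2 level of the 13 markers was 9.13 to 9.41 over the Dox+RA arrays and 8.94 to 9.37 over the Dox arrays of day 12, against 5.05 to 5.06 in control EBs. Control EBs hold other cell types. All 10 mesenchyme markers were called lower in all 4 iHC groups, with mean levels at day 12 of 4.61 to 4.97 in Dox+RA iHCs and 4.63 to 5.17 in Dox iHCs, against 9.23 to 9.25 in control EBs, and at day 8 of 4.55 to 4.69 and 4.75 to 5.18, against 8.55 to 8.90. Endothelial markers were called lower in 9 of 10 cases in 3 comparisons and in 10 of 10 in Dox+RA iHCs at day 8, and blood markers in 4 to 6 of 7. Of 12 neuronal markers, 5 were called higher and 2 lower in Dox+RA iHCs and 7 higher and 1 lower in Dox iHCs at day 12, and 8 and 9 were higher and 0 lower at day 8. Of 7 neural progenitor markers, 2 were higher and 3 lower in each iHC group at day 12, 2 and 2 in Dox+RA iHCs at day 8 and 3 and 2 in Dox iHCs at day 8. Epithelial markers were lower in 1 or 2 of 5 cases and higher in 0. Differences between iHCs and control EBs in the guidance genes stand beside these list differences, and the part of the listed cells in them was not tested. In mixed RNA, fewer cells of a type and less RNA per cell cannot be told apart.

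Promoter sequences are shown for 6 genes. RefSeq windows of build GRCm38.p6, running from 250 bases before to 50 after the annotated start, matched 57 of the 68 genes, 12 of them with more than 1 window. CAGCTG, an E-box of the kind bound by Atoh1 and related factors, reads the same on both strands. It stood in 5 of the 18 windows (27.8%) of genes higher in all 4 comparisons and in 1 of the 21 windows (4.76%) of genes lower in all 4, where 16.3% of all 32851 windows held it. Among windows of the 68 genes as a whole the share was 15.1%. The related E-boxes CAGATG and CATATG stood in 0 of the 18 and 0 of the 21 windows. For any of these 3 E-boxes the shares were therefore again 27.8% of the higher and 4.76% of the lower group, below the 33.4% of all windows, and 20.5% of the windows of the 68 genes. These shares count windows and not genes, so a gene with several windows weighs more. Sema3b, Slit1 and Unc5d of the higher group and Plxna4 and Efnb3 of the lower group had no window. The shares are a description and were not tested. Where a shown gene had more than 1 window, only the window that held an E-box is shown. The shown windows of Robo2, Sema6c, Sema7a and Robo4 hold CAGCTG, so the printed set does not represent these shares. Capitals mark CAGCTG, and the sequences run 5′ to 3′ on the strand of the gene.
Robo2 chr16:74411776-74412075 minus strand: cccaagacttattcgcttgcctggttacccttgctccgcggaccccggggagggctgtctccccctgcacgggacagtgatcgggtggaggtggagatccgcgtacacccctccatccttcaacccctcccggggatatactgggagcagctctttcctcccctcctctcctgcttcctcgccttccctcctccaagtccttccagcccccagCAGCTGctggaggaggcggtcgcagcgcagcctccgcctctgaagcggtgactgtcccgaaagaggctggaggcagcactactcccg
Sema6c chr3:95164089-95164388 plus strand: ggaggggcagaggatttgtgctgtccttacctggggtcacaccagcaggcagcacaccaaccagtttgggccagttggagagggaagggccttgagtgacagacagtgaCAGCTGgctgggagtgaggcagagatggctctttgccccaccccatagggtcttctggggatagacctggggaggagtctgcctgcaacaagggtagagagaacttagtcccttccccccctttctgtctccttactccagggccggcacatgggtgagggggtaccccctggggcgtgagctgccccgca
Sema7a chr9:57939862-57940161 plus strand: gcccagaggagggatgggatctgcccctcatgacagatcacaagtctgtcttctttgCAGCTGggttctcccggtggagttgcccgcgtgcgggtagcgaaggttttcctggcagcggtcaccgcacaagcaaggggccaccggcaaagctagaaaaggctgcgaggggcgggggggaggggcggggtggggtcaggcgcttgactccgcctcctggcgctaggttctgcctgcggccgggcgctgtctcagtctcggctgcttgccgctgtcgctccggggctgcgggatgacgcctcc
Robo4 chr9:37401722-37402021 plus strand: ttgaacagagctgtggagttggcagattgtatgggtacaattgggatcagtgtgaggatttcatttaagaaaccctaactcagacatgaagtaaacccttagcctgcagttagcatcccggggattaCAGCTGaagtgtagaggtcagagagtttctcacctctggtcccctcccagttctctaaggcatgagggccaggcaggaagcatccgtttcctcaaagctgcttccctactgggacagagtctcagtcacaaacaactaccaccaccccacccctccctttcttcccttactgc
Unc5a chr13:54949161-54949460 plus strand: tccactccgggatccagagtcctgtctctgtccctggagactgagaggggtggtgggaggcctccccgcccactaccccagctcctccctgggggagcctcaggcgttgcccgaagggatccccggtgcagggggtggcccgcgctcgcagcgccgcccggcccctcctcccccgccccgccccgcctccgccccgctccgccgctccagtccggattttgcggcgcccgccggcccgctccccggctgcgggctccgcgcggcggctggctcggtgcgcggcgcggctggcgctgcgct
Unc5c chr3:141465314-141465613 plus strand: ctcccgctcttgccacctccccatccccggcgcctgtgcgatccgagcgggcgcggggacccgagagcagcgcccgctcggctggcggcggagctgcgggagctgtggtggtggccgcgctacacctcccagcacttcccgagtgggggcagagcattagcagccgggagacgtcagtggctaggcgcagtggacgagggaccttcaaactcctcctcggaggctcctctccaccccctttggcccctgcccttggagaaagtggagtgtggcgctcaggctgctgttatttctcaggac
The match began at -37 from the start in Robo2, at -141 in Sema6c, at -193 in Sema7a and at -123 in Robo4, and the Robo2 window is 1 of 3 RefSeq starts of that gene and the Sema6c window 1 of 2. The other windows of both genes, among them that of the farthest upstream start of each, hold no CAGCTG. The Robo2 window shown is that of its farthest downstream start. Robo4 was the gene of the lower group that held it. The windows of Unc5a and Unc5c, receptors of 1 family with opposite differences, hold none. Other motifs searched on both strands in all windows were CAGATG (17.2% of all windows, 6.85% of those of the 68 genes) and CATATG (3.91%, 0.0%). Also searched were AATCAC, a Gfi1 core (10.4%, 8.22%), ATTAAT, a POU-type core (4.75%, 1.37%), and AGGTCA, a retinoid receptor core (16.3%, 13.7%). In windows of the higher and the lower group the shares were 22.2% and 14.3% for AGGTCA, 5.56% and 0.0% for ATTAAT, and 5.56% and 4.76% for AATCAC.

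Among the semaphorins, 7 of 20 were called higher in every comparison with control EBs, and they came from classes 3, 4, 6 and 7. The share over all genes was 11.3%. Class 6 semaphorins are membrane-bound ligands of A-type plexins. Sema6b at day 12 read 7.70, 7.66 and 7.57 in Dox+RA iHCs and 7.80, 7.80 and 7.58 in Dox iHCs, against 5.28 and 5.52 in control EBs. At day 8 Sema6b stood at 8.18, 8.08 and 7.49 in Dox+RA iHCs and 7.83, 7.59 and 7.29 in Dox iHCs, against 5.66 and 5.70 in control EBs. All iHC arrays lay above the control EB arrays of their day, by differences of 1.89 to 2.33 (adjusted p at most 1.12e-06). Signal of Sema6c at day 12 was 8.88, 8.98 and 8.99 in Dox+RA iHCs and 8.88, 8.80 and 8.20 in Dox iHCs, against 7.11 and 6.95 in control EBs. Values of Sema6c at day 8 were 8.63, 8.30 and 8.11 in Dox+RA iHCs and 8.31, 7.99 and 7.35 in Dox iHCs, against 6.09 and 6.15 in control EBs. Sema6c was likewise higher on every iHC array, by 1.59 to 2.23 (adjusted p at most 6.11e-05). The Sema7a arrays of day 12 gave 7.09, 7.22 and 6.92 in Dox+RA iHCs and 7.20, 7.14 and 6.76 in Dox iHCs, against 5.49 and 5.76 in control EBs. For Sema7a the day 8 arrays gave 6.86, 7.32 and 7.04 in Dox+RA iHCs and 6.65, 7.38 and 7.56 in Dox iHCs, against 5.98 and 6.18 in control EBs. Sema7a, a lipid-anchored semaphorin that binds Plxnc1 and integrins, was higher on all iHC arrays by 0.99 to 1.46 (adjusted p at most 0.00197). Its receptor Plxnc1 was lower in all 4 comparisons.

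Of the secreted class 3, Sema3e binds Plxnd1 directly, without a neuropilin. With Sema3e the arrays of day 12 read 6.70, 6.53 and 6.77 in Dox+RA iHCs and 7.07, 6.94 and 6.90 in Dox iHCs, against 5.78 and 5.68 in control EBs. The Sema3e values at day 8 were 7.48, 7.52 and 7.19 in Dox+RA iHCs and 7.26, 6.80 and 6.84 in Dox iHCs, against 5.47 and 5.35 in control EBs. The groups did not overlap, and Sema3e differed by 1.99 ± 0.14 in Dox+RA iHCs at day 8 and by 0.93 ± 0.14 at day 12. Sema3b at day 12 read 7.09, 6.63 and 6.69 in Dox+RA iHCs and 6.64, 6.85 and 7.51 in Dox iHCs, against 5.45 and 5.68 in control EBs. At day 8 Sema3b stood at 6.87, 6.71 and 6.70 in Dox+RA iHCs and 6.85, 6.73 and 6.89 in Dox iHCs, against 6.20 and 6.003 in control EBs. Sema3b, a class 3 ligand of neuropilins, was higher by 0.66 to 1.44. Its call in Dox iHCs at day 8 was lost without control EB replicate 2 (adjusted p = 0.104), and likewise in Dox+RA iHCs (adjusted p = 0.129). Signal of Sema4d at day 12 was 6.53, 6.72 and 6.95 in Dox+RA iHCs and 6.60, 6.52 and 6.67 in Dox iHCs, against 5.73 and 5.64 in control EBs. Values of Sema4d at day 8 were 5.93, 6.14 and 6.70 in Dox+RA iHCs and 6.16, 6.11 and 6.17 in Dox iHCs, against 5.43 and 5.70 in control EBs. Sema4d, the membrane-bound ligand of Plxnb1, was higher on all iHC arrays by 0.58 to 1.05, and its day 8 calls were lost without control EB replicate 1 (adjusted p = 0.0674 in Dox+RA iHCs and 0.159 in Dox iHCs). Sema4f, whose mean signal over the 16 arrays was under 5, was higher by 0.49 to 0.88, and its call in Dox iHCs at day 12 was lost with the replicate number as a block (adjusted p = 0.0581) and without control EB replicate 2 or any Dox array (adjusted p up to 0.298).

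Most semaphorins called lower than in control EBs were called so at day 12 only. The comparison is with control EBs of the same day, which themselves differed between days. For Sema5a the control EB mean was 7.02 at day 8 and 8.16 at day 12. Its mean in Dox+RA iHCs was 7.28 and 7.35, and in Dox iHCs 6.75 and 6.69. The means of Sema6a and Sema6d were lower at day 12 than at day 8 in both iHC groups. Sema3a, the best known repellent of the family and one of the dim entries, was lower in all 4 comparisons, with differences of -1.68 ± 0.14 in Dox+RA iHCs and -1.56 ± 0.14 in Dox iHCs at day 12. Sema5b was lower in all 4 as well, with differences of -0.51 to -0.32, but quantile normalization and leaving out single arrays ended its calls in Dox iHCs at day 12 (adjusted p up to 0.118) and Dox+RA iHCs at day 8 (adjusted p up to 0.134). The Sema6d arrays of day 12 gave 6.63, 6.50 and 6.54 in Dox+RA iHCs and 6.27, 6.72 and 7.06 in Dox iHCs, against 7.67 and 7.94 in control EBs. For Sema6d the day 8 arrays gave 6.93, 7.39 and 7.27 in Dox+RA iHCs and 7.61, 7.87 and 7.52 in Dox iHCs, against 7.45 and 7.15 in control EBs. Sema6d was lower at day 12, with differences of -1.25 ± 0.20 in Dox+RA iHCs and -1.12 ± 0.20 in Dox iHCs, and its day 8 differences were -0.10 ± 0.20 and 0.37 ± 0.20 with no call. With Sema6a the arrays of day 12 read 5.43, 5.42 and 6.27 in Dox+RA iHCs and 6.03, 6.51 and 6.81 in Dox iHCs, against 7.14 and 7.38 in control EBs. The Sema6a values at day 8 were 6.51, 6.80 and 6.66 in Dox+RA iHCs and 7.12, 6.94 and 6.82 in Dox iHCs, against 6.79 and 6.89 in control EBs. Sema6a, a ligand of Plxna2 and Plxna4, had the same split, with -1.55 ± 0.24 and -0.81 ± 0.24 at day 12 and -0.19 ± 0.24 and 0.12 ± 0.24 at day 8. The Sema6a call in Dox iHCs was lost without Dox replicate 1 or control EB replicate 2 (adjusted p up to 0.111). Sema5a at day 12 read 7.24, 7.39 and 7.43 in Dox+RA iHCs and 6.55, 6.70 and 6.82 in Dox iHCs, against 8.21 and 8.11 in control EBs. At day 8 Sema5a stood at 6.69, 7.16 and 7.995 in Dox+RA iHCs and 6.56, 6.76 and 6.92 in Dox iHCs, against 6.87 and 7.16 in control EBs. Sema5a, a class 5 semaphorin with thrombospondin repeats, differed by -0.80 ± 0.25 in Dox+RA iHCs and -1.47 ± 0.25 in Dox iHCs at day 12, and by 0.27 ± 0.25 and -0.27 ± 0.25 at day 8. The Sema5a call in Dox+RA iHCs was lost without Dox+RA replicate 1 or either control EB array (adjusted p up to 0.0935). Signal of Sema3d at day 12 was 5.04, 4.74 and 4.45 in Dox+RA iHCs and 4.65, 4.42 and 4.30 in Dox iHCs, against 5.35 and 5.31 in control EBs. Values of Sema3d at day 8 were 4.43, 4.78 and 4.68 in Dox+RA iHCs and 4.88, 4.77 and 4.60 in Dox iHCs, against 4.68 and 4.63 in control EBs. Sema3d, another dim entry, was called lower at day 12, with differences of -0.59 ± 0.16 and -0.87 ± 0.16, and at day 8 its iHC and control EB arrays overlapped.

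The Sema3c arrays of day 12 gave 5.30, 5.61 and 6.10 in Dox+RA iHCs and 6.37, 6.90 and 6.68 in Dox iHCs, against 7.07 and 6.93 in control EBs. For Sema3c the day 8 arrays gave 5.34, 5.66 and 5.91 in Dox+RA iHCs and 7.01, 6.93 and 6.52 in Dox iHCs, against 5.94 and 5.34 in control EBs. Sema3c, a class 3 ligand known from outflow tract development of the heart, was called lower in Dox+RA iHCs at day 12 (-1.33 ± 0.24, adjusted p = 3.38e-04) and higher in Dox iHCs at day 8 (1.18 ± 0.24, adjusted p = 0.00127). In Dox iHCs at day 12 it differed by -0.35 ± 0.24 and in Dox+RA iHCs at day 8 by -0.00 ± 0.24, with no call. Smaller single calls were made for Sema3f (-0.56 ± 0.20) and Sema4c (-0.44 ± 0.13) in Dox+RA iHCs at day 12 and Sema4b in Dox iHCs at day 8 (-0.56 ± 0.11). The Sema3f call was lost without Dox+RA replicate 1 or 2 or control EB replicate 1 (adjusted p up to 0.235), and the Sema4c call without Dox+RA replicate 1 or either control EB array (adjusted p up to 0.0677). With the replicate block Sema4c was also called in Dox iHCs at day 12 (-0.41, adjusted p = 0.00391). Sema4g was higher in 3 comparisons, by 0.82 ± 0.21 in Dox iHCs at day 12, 1.17 ± 0.21 in Dox+RA iHCs at day 8 and 1.13 ± 0.21 in Dox iHCs at day 8. Sema4a and Sema3g were not called, with differences of -0.07 to 0.01 and 0.04 to 0.30, and the block gave Sema3g a call at day 8 in Dox+RA iHCs (adjusted p = 0.0043) and Dox iHCs (adjusted p = 0.00559).

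Both neuropilins were lower in all 4 iHC groups. With Nrp1 the arrays of day 12 read 5.75, 5.28 and 4.91 in Dox+RA iHCs and 5.98, 6.30 and 5.67 in Dox iHCs, against 9.39 and 9.80 in control EBs. The Nrp1 values at day 8 were 5.39, 5.84 and 5.51 in Dox+RA iHCs and 5.95, 6.07 and 5.78 in Dox iHCs, against 10.08 and 9.93 in control EBs. Nrp1, the co-receptor of Sema3a and of vascular endothelial growth factor, was 21.5-fold lower in Dox+RA iHCs at day 8 and 19.5-fold lower at day 12 (differences of -4.42 to -3.61, adjusted p at most 7.92e-09). Nrp2 at day 12 read 5.67, 5.76 and 5.95 in Dox+RA iHCs and 6.36, 7.07 and 7.32 in Dox iHCs, against 8.34 and 8.16 in control EBs. At day 8 Nrp2 stood at 6.92, 7.44 and 7.22 in Dox+RA iHCs and 8.23, 8.18 and 7.91 in Dox iHCs, against 8.80 and 8.66 in control EBs. Nrp2, the co-receptor of Sema3f, differed by -2.45 ± 0.22 in Dox+RA iHCs and -1.33 ± 0.22 in Dox iHCs at day 12, and by -1.54 ± 0.22 and -0.62 ± 0.22 at day 8. Every iHC array of both genes lay below the control EB arrays of its day. The Nrp2 call in Dox iHCs at day 8 was lost when any 1 of the 5 arrays was left out (adjusted p of 0.0501 to 0.181).

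The 9 plexins, the signalling receptors of the semaphorins, went both ways. Signal of Plxna4 at day 12 was 5.39, 5.61 and 5.72 in Dox+RA iHCs and 5.53, 5.63 and 5.95 in Dox iHCs, against 8.62 and 8.66 in control EBs. Values of Plxna4 at day 8 were 5.82, 5.89 and 5.65 in Dox+RA iHCs and 5.60, 5.95 and 5.75 in Dox iHCs, against 8.61 and 8.23 in control EBs. Plxna4, which acts with Nrp1 in the response to Sema3a, was lower, with differences of -3.07 to -2.63 and no overlap between groups. The Plxna2 arrays of day 12 gave 5.42, 5.93 and 6.18 in Dox+RA iHCs and 5.51, 5.80 and 6.33 in Dox iHCs, against 8.07 and 8.20 in control EBs. For Plxna2 the day 8 arrays gave 5.56, 5.98 and 6.28 in Dox+RA iHCs and 5.80, 6.23 and 6.83 in Dox iHCs, against 8.14 and 7.51 in control EBs. Plxna2, a receptor of Sema6a, was lower, with differences of -2.29 to -1.54. With Plxnb2 the arrays of day 12 read 6.51, 6.91 and 7.87 in Dox+RA iHCs and 7.17, 7.63 and 8.07 in Dox iHCs, against 9.34 and 9.38 in control EBs. The Plxnb2 values at day 8 were 7.10, 7.28 and 7.70 in Dox+RA iHCs and 7.65, 7.62 and 7.90 in Dox iHCs, against 9.23 and 8.98 in control EBs. Plxnb2, a receptor of Sema4c, was lower, with differences of -2.26 to -1.38, and in Plxna2 and Plxnb2 the iHC arrays numbered 3 were the highest of their group. Plxnc1, the Sema7a receptor, is a dim entry and was lower, with differences of -1.63 to -1.13. Plxnd1 at day 12 read 8.86, 8.57 and 8.22 in Dox+RA iHCs and 8.92, 9.13 and 9.15 in Dox iHCs, against 7.85 and 7.78 in control EBs. At day 8 Plxnd1 stood at 9.04, 9.15 and 8.61 in Dox+RA iHCs and 9.39, 9.34 and 9.13 in Dox iHCs, against 8.45 and 8.44 in control EBs. Plxnd1, the Sema3e receptor, was higher by 0.49 to 1.25, the smallest difference being that of Dox+RA iHCs at day 8, whose call was lost without either control EB array or without Dox+RA replicate 1 or 2 (adjusted p of 0.0972 to 0.132). Plxnb1, the Sema4d receptor, was higher by 0.46 to 0.93 and the dim entry Plxnb3 by 0.26 to 0.62, where the block ended the Plxnb3 call in Dox+RA iHCs at day 12 (adjusted p = 0.0684). Leaving out any 1 of the 5 arrays ended that call too (adjusted p up to 0.22), as did leaving out Dox replicate 2 or 3 or either control EB array for Plxnb3 in Dox iHCs at day 12 (up to 0.153) and control EB replicate 2 for Plxnb1 there (0.058). Signal of Plxna3 at day 12 was 7.96, 7.82 and 7.71 in Dox+RA iHCs and 7.30, 7.07 and 6.77 in Dox iHCs, against 7.03 and 6.85 in control EBs. Values of Plxna3 at day 8 were 8.09, 7.64 and 7.71 in Dox+RA iHCs and 7.12, 7.13 and 6.60 in Dox iHCs, against 6.57 and 6.42 in control EBs. Plxna3, which acts with Nrp2 in the response to Sema3f, was called higher in Dox+RA iHCs, by 0.89 ± 0.18 at day 12 and 1.32 ± 0.18 at day 8, while Dox iHCs differed by 0.11 ± 0.18 and 0.46 ± 0.18 (day 8 with the block: adjusted p = 0.00135). Plxna1 was called in no comparison, with differences of -0.26 to 0.16.

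Slits and robos divided within each family. The Slit1 arrays of day 12 gave 6.74, 6.65 and 6.39 in Dox+RA iHCs and 7.10, 6.94 and 6.46 in Dox iHCs, against 5.12 and 5.01 in control EBs. For Slit1 the day 8 arrays gave 6.62, 6.83 and 6.65 in Dox+RA iHCs and 7.21, 7.97 and 7.51 in Dox iHCs, against 4.87 and 4.80 in control EBs. Slit1, the slit most restricted to neural tissue, was higher on all iHC arrays, by 1.53 to 2.73 (adjusted p at most 1.42e-05). With Slit3 the arrays of day 12 read 6.03, 5.62 and 5.44 in Dox+RA iHCs and 5.90, 5.82 and 6.33 in Dox iHCs, against 9.12 and 8.76 in control EBs. The Slit3 values at day 8 were 6.49, 6.27 and 6.37 in Dox+RA iHCs and 6.53, 6.85 and 7.50 in Dox iHCs, against 8.98 and 8.66 in control EBs. Slit3 was lower on all of them, with differences of -3.24 to -1.86 (adjusted p at most 2.47e-05). Slit2 at day 12 read 7.89, 8.27 and 8.17 in Dox+RA iHCs and 8.93, 9.30 and 8.67 in Dox iHCs, against 8.79 and 8.54 in control EBs. At day 8 Slit2 stood at 8.39, 8.63 and 8.38 in Dox+RA iHCs and 9.15, 9.09 and 8.92 in Dox iHCs, against 8.35 and 8.46 in control EBs. Slit2 was called lower in Dox+RA iHCs at day 12 (-0.55 ± 0.16) and higher in Dox iHCs at day 8 (0.65 ± 0.16), and not called in Dox iHCs at day 12 (0.30 ± 0.16) or Dox+RA iHCs at day 8 (0.07 ± 0.16). The first of these calls was lost without control EB replicate 1 (adjusted p = 0.128) or Dox+RA replicate 1 (0.0541), and the second without control EB replicate 1 (0.0509).

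The robos are the receptors. Signal of Robo2 at day 12 was 9.10, 9.11 and 9.48 in Dox+RA iHCs and 9.70, 9.85 and 9.78 in Dox iHCs, against 7.20 and 7.005 in control EBs. Values of Robo2 at day 8 were 9.75, 9.78 and 9.94 in Dox+RA iHCs and 10.32, 10.22 and 10.004 in Dox iHCs, against 6.20 and 6.69 in control EBs. Robo2, a receptor of all slits, was higher on every iHC array, by 2.13 ± 0.15 in Dox+RA iHCs and 2.67 ± 0.15 in Dox iHCs at day 12, and by 3.38 ± 0.15 and 3.73 ± 0.15 at day 8, where the last is a 13.3-fold difference. The Robo1 arrays of day 12 gave 5.03, 4.98 and 5.71 in Dox+RA iHCs and 4.79, 5.57 and 5.94 in Dox iHCs, against 8.48 and 8.36 in control EBs. For Robo1 the day 8 arrays gave 5.54, 6.63 and 6.89 in Dox+RA iHCs and 7.05, 7.62 and 7.78 in Dox iHCs, against 7.87 and 7.96 in control EBs. Robo1, its close relative, was lower, with differences of -3.18 ± 0.37 in Dox+RA iHCs and -2.98 ± 0.37 in Dox iHCs at day 12 and a difference of -1.56 ± 0.37 in Dox+RA iHCs at day 8. In Dox iHCs at day 8 Robo1 differed by -0.43 ± 0.37 (adjusted p = 0.434), and with the replicate block by -0.66 (adjusted p = 0.0297). Robo1 and Robo2 are neighbours, with no protein-coding gene between them in the RefSeq annotation of GRCm38.p6, and they were called in opposite directions in 3 of the 4 comparisons. Robo4, known as an endothelial robo, is a dim entry and was lower, with differences of -1.05 to -0.60. Robo3, known from commissural axons, is dim as well and was called in none, with differences of -0.14 to 0.16.

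The netrin receptors differed far in both directions. With Unc5a the arrays of day 12 read 9.88, 9.84 and 9.54 in Dox+RA iHCs and 9.17, 9.07 and 8.74 in Dox iHCs, against 5.59 and 5.39 in control EBs. The Unc5a values at day 8 were 9.57, 9.27 and 9.40 in Dox+RA iHCs and 8.68, 8.33 and 7.86 in Dox iHCs, against 5.63 and 4.91 in control EBs. Unc5a was higher on all iHC arrays, by 4.26 ± 0.23 in Dox+RA iHCs and 3.51 ± 0.23 in Dox iHCs at day 12, which are 19.2-fold and 11.4-fold, and by 4.14 ± 0.23 and 3.02 ± 0.23 at day 8. Unc5c at day 12 read 5.01, 5.20 and 5.17 in Dox+RA iHCs and 4.72, 5.22 and 5.91 in Dox iHCs, against 9.32 and 9.47 in control EBs. At day 8 Unc5c stood at 4.91, 4.99 and 5.15 in Dox+RA iHCs and 6.27, 7.09 and 6.63 in Dox iHCs, against 9.09 and 8.97 in control EBs. Unc5c, another repulsive receptor of the same family, was lower on all of them, with differences of -4.27 ± 0.26 and -4.11 ± 0.26 at day 12 (19.3-fold and 17.3-fold) and differences of -4.02 ± 0.26 and -2.37 ± 0.26 at day 8. Signal of Unc5d at day 12 was 6.44, 6.84 and 6.92 in Dox+RA iHCs and 7.19, 7.30 and 6.91 in Dox iHCs, against 5.24 and 5.02 in control EBs. Values of Unc5d at day 8 were 5.97, 6.43 and 7.22 in Dox+RA iHCs and 6.73, 6.85 and 7.31 in Dox iHCs, against 4.98 and 4.27 in control EBs. Unc5d was higher by 1.60 to 2.34 with no overlap. In the same sorted cells, then, Unc5a and Unc5d were higher and Unc5c was lower.

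The Dcc arrays of day 12 gave 4.41, 4.98 and 6.14 in Dox+RA iHCs and 4.93, 5.63 and 6.19 in Dox iHCs, against 4.94 and 4.96 in control EBs. For Dcc the day 8 arrays gave 5.35, 5.95 and 7.75 in Dox+RA iHCs and 6.82, 7.26 and 7.64 in Dox iHCs, against 4.25 and 4.55 in control EBs. Dcc, the attractive netrin receptor, was called higher at day 8, by 1.95 ± 0.58 in Dox+RA iHCs and 2.84 ± 0.58 in Dox iHCs, and the Dox+RA call was lost without either control EB array (adjusted p up to 0.0838). At day 12 its arrays overlapped those of control EBs in both groups, with 0.23 ± 0.58 and 0.63 ± 0.58. Within each iHC group the array numbered 3 was the highest and the array numbered 1 the lowest for Dcc. Unc5b, known from blood vessels, was called lower at day 8, with differences of -1.45 ± 0.33 in Dox+RA iHCs and -1.63 ± 0.33 in Dox iHCs, and differed by -0.50 ± 0.33 and -0.81 ± 0.33 at day 12. With the block Unc5b was called in Dox iHCs at day 12 as well (-0.55, adjusted p = 0.00532). The ligands moved less. Netrin-1 (Ntn1) was called in no comparison, with differences of -0.11 to 0.24, and Ntn3 was lower in all 4, with differences of -1.02 to -0.60. Ntn4, a netrin of basement membranes and a dim entry, was called higher in Dox iHCs at day 8 (0.60 ± 0.17). In Dox iHCs at day 8 the Ntn3 call was lost without control EB replicate 1 (adjusted p = 0.0656) and the Ntn4 call without control EB replicate 2 (adjusted p = 0.135).

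**Figure D2:**
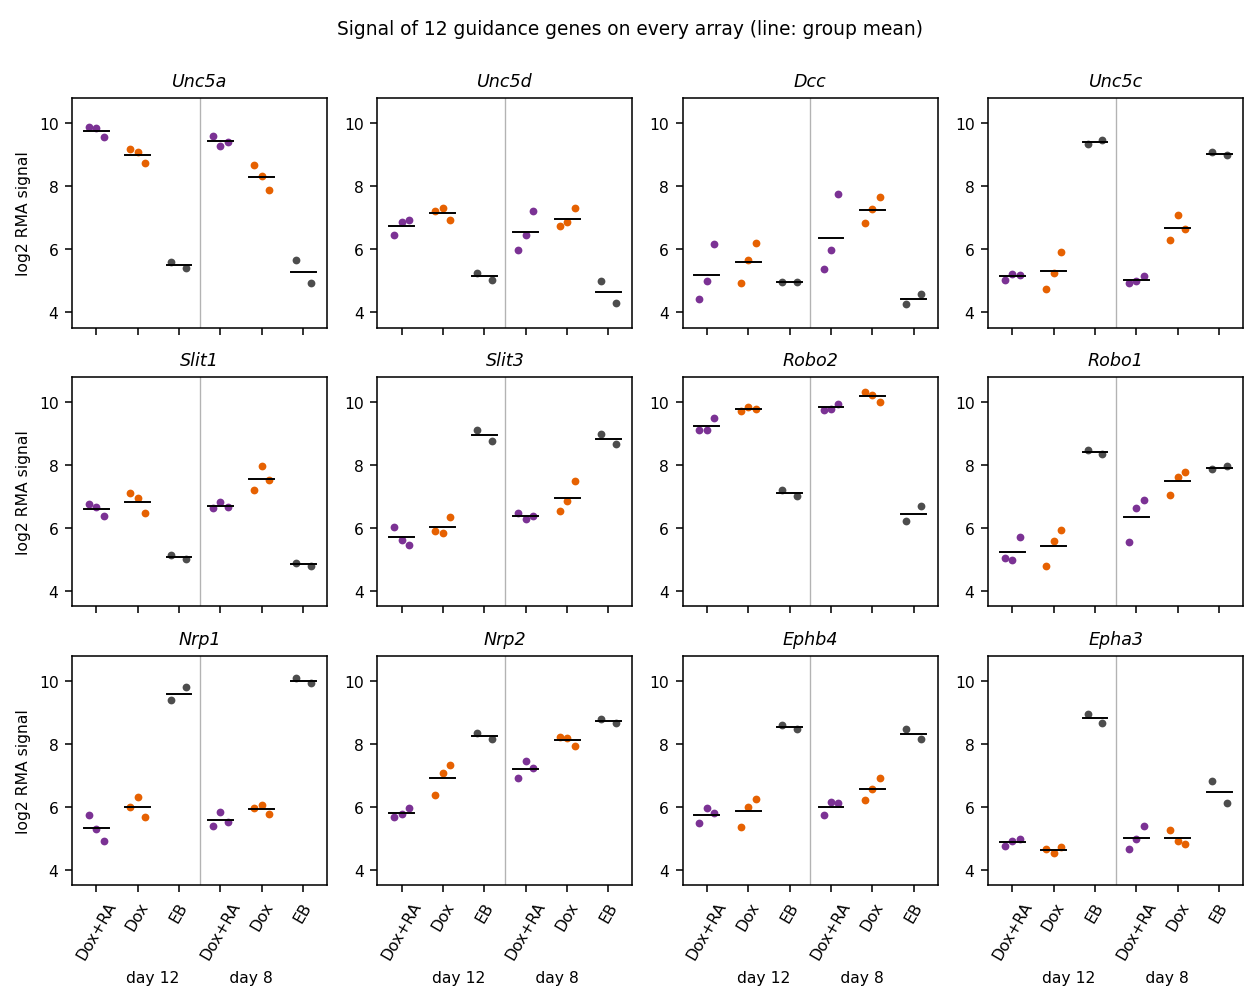
Each point is the log2 RMA signal of 1 array for 12 guidance genes, with Dox+RA iHCs, Dox iHCs and control EBs in order at day 12 (left of the grey line) and day 8 (right), and a black line at the group mean. Points of Unc5a, Unc5d, Slit1 and Robo2 lie above those of control EBs at both days, those of Unc5c, Slit3, Nrp1, Nrp2, Ephb4 and Epha3 lie below, and the Dcc points of iHCs at day 12 overlap control EBs.

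Ephrins were lower in iHCs in 6 of 8 cases in all 4 comparisons, where 14.5% of all genes were. With Efnb3 the arrays of day 12 read 5.19, 5.26 and 5.35 in Dox+RA iHCs and 5.05, 5.03 and 5.62 in Dox iHCs, against 7.39 and 7.48 in control EBs. The Efnb3 values at day 8 were 5.40, 5.26 and 5.36 in Dox+RA iHCs and 5.22, 5.58 and 5.97 in Dox iHCs, against 8.19 and 7.83 in control EBs. Efnb3, a ligand known from the midline of the nervous system, was lower, with differences of -2.67 to -2.17. Efnb2 at day 12 read 5.68, 5.51 and 5.48 in Dox+RA iHCs and 5.80, 6.48 and 6.21 in Dox iHCs, against 7.85 and 7.76 in control EBs. At day 8 Efnb2 stood at 6.10, 6.59 and 6.04 in Dox+RA iHCs and 6.95, 7.28 and 6.72 in Dox iHCs, against 7.70 and 7.89 in control EBs. Efnb2, the arterial partner of Ephb4, was lower, with differences of -2.25 ± 0.20 in Dox+RA iHCs and -1.65 ± 0.20 in Dox iHCs at day 12 and differences of -1.55 ± 0.20 and -0.81 ± 0.20 at day 8, where the last call was lost without control EB replicate 2 (adjusted p = 0.0606). Signal of Efnb1 at day 12 was 8.06, 8.01 and 8.005 in Dox+RA iHCs and 7.69, 8.07 and 7.99 in Dox iHCs, against 8.72 and 9.01 in control EBs. Values of Efnb1 at day 8 were 7.40, 7.44 and 7.79 in Dox+RA iHCs and 7.70, 7.92 and 7.89 in Dox iHCs, against 9.03 and 8.96 in control EBs. Efnb1 was lower, with differences of -1.45 to -0.84. The Efna1 arrays of day 12 gave 5.81, 5.34 and 5.10 in Dox+RA iHCs and 5.27, 5.63 and 5.72 in Dox iHCs, against 7.20 and 7.47 in control EBs. For Efna1 the day 8 arrays gave 5.41, 5.67 and 5.67 in Dox+RA iHCs and 5.65, 5.92 and 6.29 in Dox iHCs, against 7.45 and 7.38 in control EBs. Efna1 was lower, with differences of -1.92 to -1.46, Efna4 with differences of -1.78 to -0.94 and Efna2 with differences of -1.12 to -0.73. Efna3 was called higher at day 8, by 0.59 ± 0.13 in Dox+RA iHCs and 0.56 ± 0.13 in Dox iHCs, and it lies between Efna1 and Efna4, its RefSeq neighbours, which were lower. Efna5 was called in none, with -0.64 to 0.11, and its array numbered 3 was the lowest of each iHC group.

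Of the 13 Eph receptors, 1 was higher and 3 were lower in all 4 comparisons, where 11.3% and 14.5% of all genes were. With Ephb4 the arrays of day 12 read 5.48, 5.94 and 5.81 in Dox+RA iHCs and 5.36, 5.98 and 6.24 in Dox iHCs, against 8.58 and 8.48 in control EBs. The Ephb4 values at day 8 were 5.75, 6.14 and 6.12 in Dox+RA iHCs and 6.21, 6.56 and 6.91 in Dox iHCs, against 8.48 and 8.15 in control EBs. Ephb4, the venous partner of Efnb2, was lower, with differences of -2.79 to -1.75 and no overlap between groups. Epha3 at day 12 read 4.75, 4.91 and 4.99 in Dox+RA iHCs and 4.65, 4.53 and 4.71 in Dox iHCs, against 8.96 and 8.65 in control EBs. At day 8 Epha3 stood at 4.64, 4.97 and 5.40 in Dox+RA iHCs and 5.27, 4.90 and 4.82 in Dox iHCs, against 6.81 and 6.12 in control EBs. Epha3, an A-type receptor needed for heart cushion development, was lower, with differences of -3.92 ± 0.22 in Dox+RA iHCs and -4.18 ± 0.22 in Dox iHCs at day 12, and differences of -1.46 ± 0.22 and -1.47 ± 0.22 at day 8. Neither iHC group was called for a change of Epha3 over time, while control EBs were. Epha4, which binds both kinds of ephrin, was lower, with differences of -0.90 to -0.63. Its calls were lost without control EB replicate 1 in Dox iHCs at day 12 (adjusted p = 0.106), without control EB replicate 1 or Dox+RA replicate 1 or 2 in Dox+RA iHCs at both days (adjusted p up to 0.174), and at day 8 also without control EB replicate 2. Signal of Epha2 at day 12 was 6.48, 6.66 and 6.73 in Dox+RA iHCs and 6.70, 7.04 and 7.12 in Dox iHCs, against 5.91 and 6.04 in control EBs. Values of Epha2 at day 8 were 7.02, 7.39 and 7.17 in Dox+RA iHCs and 6.86, 6.90 and 7.22 in Dox iHCs, against 5.86 and 6.32 in control EBs. Epha2 was higher on all iHC arrays, by 0.65 to 1.11.

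The Epha5 arrays of day 12 gave 4.87, 4.84 and 5.11 in Dox+RA iHCs and 5.81, 5.84 and 5.46 in Dox iHCs, against 4.86 and 4.67 in control EBs. For Epha5 the day 8 arrays gave 5.41, 5.19 and 5.36 in Dox+RA iHCs and 6.48, 6.69 and 6.26 in Dox iHCs, against 4.10 and 3.82 in control EBs. Epha5 was called higher in Dox iHCs at day 12 (0.93 ± 0.15) and in both iHC groups at day 8 (1.36 ± 0.15 with RA and 2.52 ± 0.15 without), and differed by 0.17 ± 0.15 in Dox+RA iHCs at day 12. With Epha1 the arrays of day 12 read 7.58, 7.47 and 6.73 in Dox+RA iHCs and 6.91, 6.52 and 6.01 in Dox iHCs, against 4.998 and 5.33 in control EBs. The Epha1 values at day 8 were 6.26, 6.29 and 6.11 in Dox+RA iHCs and 5.76, 5.74 and 5.64 in Dox iHCs, against 5.17 and 5.62 in control EBs. Epha1, a receptor of epithelia, was higher by 2.10 ± 0.25 in Dox+RA iHCs and 1.32 ± 0.25 in Dox iHCs at day 12 and by 0.83 ± 0.25 in Dox+RA iHCs at day 8, where the call was lost without control EB replicate 1 (adjusted p = 0.16). Epha7 at day 12 read 6.39, 6.02 and 6.12 in Dox+RA iHCs and 6.91, 7.28 and 7.68 in Dox iHCs, against 8.45 and 8.33 in control EBs. At day 8 Epha7 stood at 7.06, 6.73 and 6.54 in Dox+RA iHCs and 7.86, 7.74 and 8.05 in Dox iHCs, against 8.12 and 7.59 in control EBs. Epha7 was lower, with differences of -2.22 ± 0.21 in Dox+RA iHCs and -1.10 ± 0.21 in Dox iHCs at day 12 and a difference of -1.08 ± 0.21 in Dox+RA iHCs at day 8, and overlapped control EBs in Dox iHCs at day 8 (0.03 ± 0.21). Ephb1 was higher in Dox iHCs at day 8 (0.65 ± 0.16). Ephb3 was lower at day 12 (-0.91 ± 0.19 in Dox+RA iHCs and -0.61 ± 0.19 in Dox iHCs), and Ephb6, a receptor without kinase activity, was called lower in 3 comparisons (-0.27 ± 0.10, -0.28 ± 0.10 and, in Dox iHCs at day 8, -0.31 ± 0.10). Epha6, Epha8 and Epha10 were called in none, with differences of -0.16 to 0.18, -0.27 to 0.24 and 0.16 to 0.33. Plxna4os1, the noncoding RNA, was called higher in Dox+RA iHCs at day 12 (0.31 ± 0.11). Leaving out single arrays ended the calls of Ephb3 in Dox iHCs at day 12 (adjusted p up to 0.134), of Ephb6 in all 3 comparisons (up to 0.198) and of Plxna4os1 (up to 0.201), and median centring or quantile normalization ended those of Ephb6 at day 12. With the block Epha8, Ephb3, Ephb6 and Plxna4os1 were also called in Dox+RA iHCs at day 8 (adjusted p of 0.00768 to 0.0489).

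The next comparison asks what RA added to Dox. Most called guidance genes were lower with RA. At day 12, 1 of the 68 genes was called higher and 5 lower in Dox+RA iHCs than in Dox iHCs, against 0.383% and 0.541% of all genes (0.924% in all), and with the replicate block 4 and 10 were. At day 8, 2 were called higher and 9 lower, against 2.05% and 2.89% (4.93% in all), and with the block 4 and 14 were. The shares of all genes come from the fit without the block. Shares with the block were not computed, so the blocked counts have no share to stand beside. Nrp2, Epha7, Sema3c, Epha5 and Slit2 were lower and Plxna3 was higher with RA at both days. Hair cell markers were called higher with RA in 0 of 13 cases at day 12 and 5 of 13 at day 8 and mesenchyme markers lower in 0 and 1 of 10. Neuronal markers were lower in 1 of 12 cases at each day and higher in 0 at day 12 and 1 at day 8, neural progenitor markers were lower in 0 and 1 of 7, and no endothelial, blood or epithelial marker was called. The part of the markers that moved was not tested.

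Nrp2 was lower with RA, with differences of -1.12 ± 0.20 at day 12 (adjusted p = 0.0134) and -0.91 ± 0.20 at day 8 (adjusted p = 0.0153), and no Dox+RA array reached the Dox arrays of its day. The ligand Sema3c was lower, with differences of -0.98 ± 0.22 and -1.19 ± 0.22 (adjusted p = 0.049 and 0.00678). Epha5 was lower, with differences of -0.76 ± 0.14 and -1.16 ± 0.14 (adjusted p = 0.0142 and 3.07e-04) and Epha7 with differences of -1.12 ± 0.19 and -1.11 ± 0.19 (adjusted p = 0.0116 and 0.00467). Slit2 was lower, with differences of -0.86 ± 0.15 at day 12 and -0.59 ± 0.15 at day 8. Plxna3, the plexin that pairs with Nrp2, was higher with RA by 0.78 ± 0.16 at day 12 and 0.86 ± 0.16 at day 8. With only the Dox+RA and Dox arrays of day 12 in the fit, all 6 of these day 12 calls were lost (adjusted p of 0.1 to 0.18), and leaving out Dox replicate 2 ended all 6 as well (adjusted p of 0.0669 to 0.239). At day 8 the Nrp2 call was lost without Dox+RA replicate 1 (adjusted p = 0.071) or Dox replicate 2 (0.0751), and the Slit2 call without any 1 of 5 of the 6 arrays (up to 0.125). The day 8 calls of Epha5, Epha7, Sema3c and Plxna3 held with any 1 array left out. With the block Efnb2, Nrp1, Plxnd1, Robo2 and Sema6a were also called lower with RA at day 12 and Epha1 and Sema5a higher (adjusted p of 0.0243 to 0.0488).

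Other calls were made at day 8. Unc5c was lower with RA, with a difference of -1.65 ± 0.24 (adjusted p = 0.00128), where the Dox+RA arrays read 4.91, 4.99 and 5.15 and the Dox arrays 6.27, 7.09 and 6.63, and at day 12 the difference was -0.16 ± 0.24. Unc5a was higher by 1.13 ± 0.20 (adjusted p = 0.00636). At day 12 Unc5a differed by 0.76 ± 0.20 (adjusted p = 0.11, and 0.00842 with the block). At day 8 Dox+RA iHCs therefore lay further from control EBs than Dox iHCs in both receptors. Slit1 (-0.86 ± 0.18), Efnb2 (-0.74 ± 0.18) and the dim entry Ntn4 (-0.61 ± 0.15) were lower with RA at day 8 as well, and each of these 3 calls was lost without Dox replicate 2 (adjusted p up to 0.144 over the arrays left out). The Unc5c and Unc5a calls held with any 1 array left out. With the block, Dcc (-0.89, adjusted p = 0.0266, against 0.398 without it) and Robo1 (-1.13, adjusted p = 0.00227, against 0.0683) joined them, as did Efna4, Ephb3 and Ephb4, while Sema3e and Sema4b were higher (adjusted p of 0.0201 to 0.0478). No guidance gene was called for a different RA effect at day 12 than at day 8 in limma, and 0.00902% of all genes were. At an unadjusted p under 0.05, 5 had a higher and 3 a lower RA effect at day 12, and fits with the block called 0 of them and with array weights 1.

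**Figure D3:**
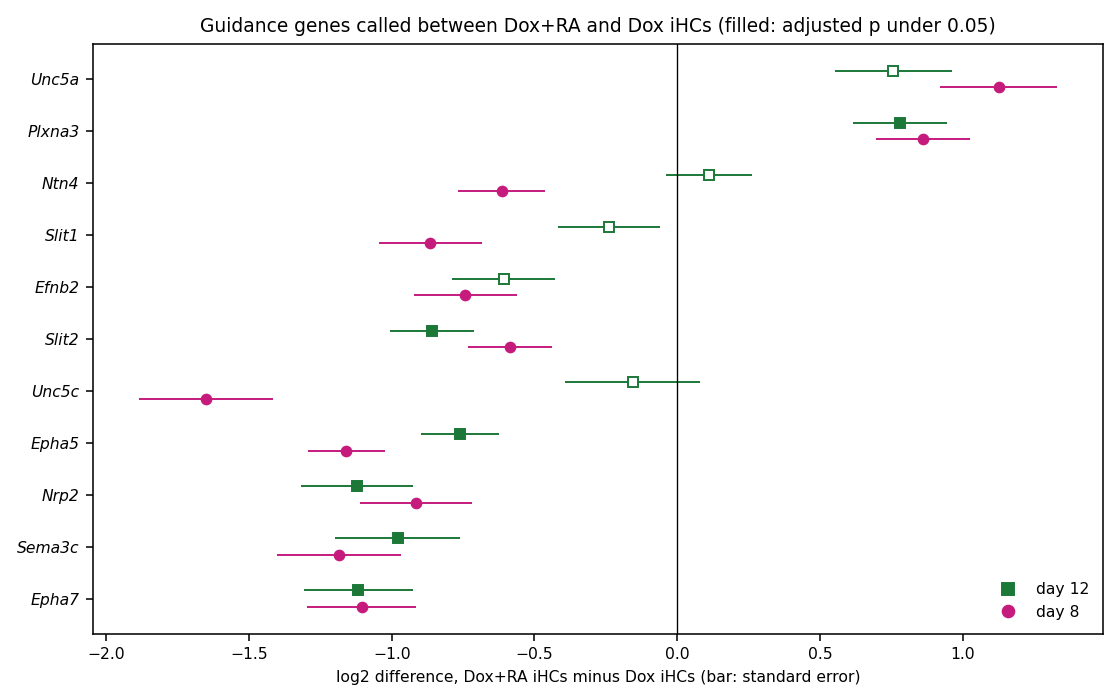
Points give the log2 difference of Dox+RA iHCs minus Dox iHCs at day 12 (squares) and day 8 (circles) for the 11 guidance genes called at either day, with bars for the standard error and filled points for an adjusted p under 0.05. Plxna3 lies right of 0 and Nrp2, Epha5, Epha7, Sema3c and Slit2 left of 0 with filled points at both days, and Unc5c is far left at day 8 and near 0 at day 12.

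From day 8 to day 12 the called guidance genes mostly fell in iHCs and rose in control EBs. Dox+RA iHCs had 2 of 68 genes higher and 7 lower at day 12, against 1.78% and 2.61% of all genes (4.38% in all). Dox iHCs had 2 higher and 11 lower, against 3.39% and 4.66% (8.05% in all). Control EBs had 6 higher and 0 lower, against 2.33% and 1.42% (3.75% in all), with 17 higher and 3 lower at an unadjusted p under 0.05 in limma. At that unadjusted threshold 29.4% of the 68 and 14.1% of all genes passed in either direction. With the replicate block the counts were 5 and 10 in Dox+RA iHCs, 6 and 14 in Dox iHCs and 8 and 1 in control EBs. The shares of all genes are those without the block, and blocked shares were not computed. Neuronal markers were lower at day 12 in 4 of 12 cases in Dox+RA iHCs and 5 in Dox iHCs, where 1 was higher, and neural progenitor markers in 2 and 4 of 7. Endothelial markers were lower in 0 and 5 of 10 cases and blood markers in 2 of 7 in each, and hair cell markers had 1 of 13 lower in Dox+RA iHCs and 2 higher in Dox iHCs. In control EBs 3 of 10 mesenchyme and 2 of 12 neuronal markers were higher at day 12, and 3 of 10 endothelial, 5 of 7 blood and 1 of 13 hair cell markers were lower. The part of these cells in the results was not tested.

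Nrp2 was lower at day 12 in both iHC groups, with differences of -1.40 ± 0.20 in Dox+RA iHCs (adjusted p = 0.00142) and -1.19 ± 0.20 in Dox iHCs (adjusted p = 0.0034). Efnb2 was lower in both too (-0.69 ± 0.18 and -0.82 ± 0.18), and so was Sema4c (-0.48 ± 0.12 and -0.43 ± 0.12). In Dox+RA iHCs the other falls were Sema6a (-0.95 ± 0.21), Sema3e (-0.74 ± 0.13), Robo2 (-0.59 ± 0.14) and Epha2 (-0.57 ± 0.15), and the rises were Epha1 (1.04 ± 0.23, adjusted p = 0.0184) and Efnb1 (0.48 ± 0.12). In Dox iHCs Robo1 fell by 2.04 on the log2 scale (4.12-fold, adjusted p = 0.00327), with no day 12 array as high as any day 8 array, and Unc5c was lower, with a difference of -1.38 ± 0.24 (adjusted p = 0.00382). Other falls there were Sema6d (-0.98 ± 0.18), Slit3 (-0.94 ± 0.22), Epha5 (-0.77 ± 0.14), Slit1 (-0.73 ± 0.18), Efna4 (-0.74 ± 0.17) and Ntn4 (-0.62 ± 0.15). The rises were Sema6c (0.74 ± 0.21) and Unc5a (0.71 ± 0.20), with adjusted p up to 0.203 and 0.208 when 1 array was left out. In Dox+RA iHCs only the Nrp2 and Sema3e calls held with any 1 array left out, and the other 7 were each lost without day 12 replicate 1 or 2 or day 8 replicate 2 (adjusted p up to 0.187). In Dox iHCs those of Nrp2, Robo1, Unc5c, Sema6d and Epha5 held, and the other 8 were each lost without day 8 replicate 2 (adjusted p up to 0.208 over the arrays left out). With only the groups compared in the fit, the Unc5c and Sema6d calls were lost too (adjusted p = 0.0624 and 0.0524). With the block Dcc was lower at day 12 in Dox+RA iHCs (-1.17, adjusted p = 0.00715, against 0.254 without it) and in Dox iHCs (-1.65, adjusted p = 5.70e-04, against 0.0671). The block also called Robo1 and Sema6d lower and Sema4d, Sema6c and Unc5b higher in Dox+RA iHCs (adjusted p of 0.00308 to 0.0433), and Epha7 and Ephb4 lower and Epha1, Plxna1, Sema4b and Sema4d higher in Dox iHCs (adjusted p of 0.0082 to 0.0443).

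In control EBs Epha3 rose by 2.34 ± 0.24 (5.06-fold, adjusted p = 3.37e-05), Sema3c by 1.36 ± 0.27, Sema5a by 1.14 ± 0.28, Epha5 by 0.81 ± 0.17, Sema3d by 0.67 ± 0.17 and Robo2 by 0.66 ± 0.17. With 2 arrays a day, leaving out 1 control EB array ended the calls of Sema3c, Sema5a, Epha5, Sema3d and Robo2 (adjusted p up to 0.329), and the Epha3 call held without any 1 of them. The block added Epha8 and Sema6c as higher and Plxnd1 as lower (adjusted p of 0.00817 to 0.0336).

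Time changes were then tested for a difference between iHCs and control EBs. Without the block, the change was lower in iHCs for each guidance gene called. For Dox+RA iHCs 0 of 68 were called higher and 6 lower than control EBs, against 0.956% and 1.67% of all genes (2.62% in all), and with the block 2 and 14. For Dox iHCs 0 were called higher and 8 lower, against 1.03% and 1.81% (2.84% in all), and with the block 2 and 16. Here too the shares of all genes are those without the block. At an unadjusted p under 0.05 in limma, 2 guidance genes had a higher and 21 a lower change in Dox+RA iHCs, and 3 and 27 in Dox iHCs. Of all genes, 13.6% and 14.2% passed that threshold in either direction. Epha3 had the widest gap, with changes of -0.12 ± 0.19 in Dox+RA iHCs and -0.37 ± 0.19 in Dox iHCs, against 2.34 ± 0.24 in control EBs (adjusted p = 4.66e-04 and 2.36e-04). Robo1 changed by -2.04 ± 0.33 in Dox iHCs, against 0.51 ± 0.41 in control EBs (adjusted p = 0.0169). Robo2 changed by -0.59 ± 0.14 in Dox+RA iHCs and -0.41 ± 0.14 in Dox iHCs, against 0.66 ± 0.17 in control EBs (adjusted p = 0.005 and 0.0146). Epha5, Sema6d, Unc5c, Sema3c, Sema3d, Sema6a and Sema3e made up the rest. The calls of Epha3 in both iHC groups, Epha5 in Dox iHCs and Robo2 in Dox+RA iHCs held with any 1 array left out, and the other 10 were each lost without at least 1 control EB array (adjusted p up to 0.209 over the arrays left out). With the block Dcc, Epha7, Sema3a, Sema4c and Sema5a were called lower and Epha1 and Unc5b higher in both iHC groups against control EBs, Efna3, Robo1 and Sema3c lower in Dox+RA iHCs, and Efna4, Ntn4 and Slit1 lower in Dox iHCs (adjusted p of 0.0034 to 0.0452).

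**Figure D4:**
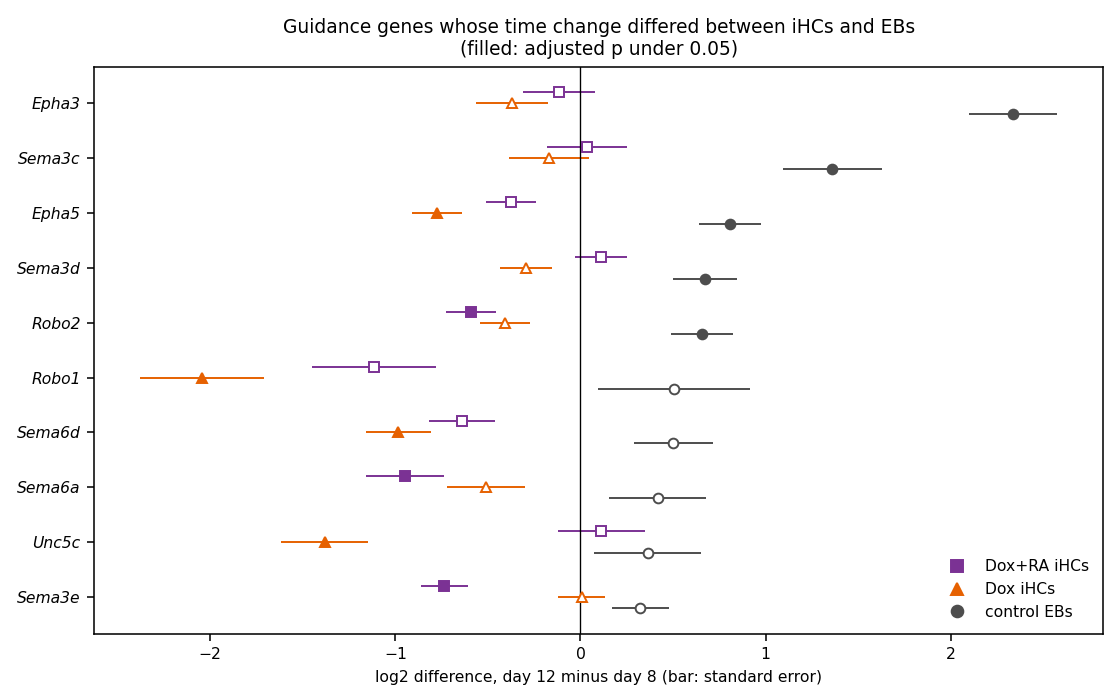
Points give the log2 difference of day 12 minus day 8 in Dox+RA iHCs (squares), Dox iHCs (triangles) and control EBs (circles) for the 10 guidance genes whose time change differed between iHCs and control EBs, with bars for the standard error and filled points for an adjusted p under 0.05. All 10 circles lie right of 0, and the Robo1 and Unc5c triangles lie farthest left.

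Genes outside the families but in the same pathway were counted on lists of 25 other guidance cues and receptors and 38 growth cone effectors with an entry of their own. Of the other cues and receptors, 8 were higher and 11 lower in Dox+RA iHCs at day 12, 10 and 8 in Dox iHCs at day 12, 8 and 8 in Dox+RA iHCs at day 8, and 10 and 7 in Dox iHCs at day 8. In the same order, 22.4% and 22.4%, 19.2% and 21.7%, 19.6% and 22.0%, and 15.7% and 18.9% of all genes were called higher and lower. Cntn2, an axonal adhesion protein, was higher by 5.35 ± 0.15 in Dox+RA iHCs and 5.25 ± 0.15 in Dox iHCs at day 12 and by 5.55 ± 0.15 and 5.30 ± 0.15 at day 8. Flrt1, a membrane protein of a family that binds Unc5 receptors, was higher by 3.40 to 4.01, while its relative Flrt3 differed by -3.86 ± 0.24 and -3.53 ± 0.24 at day 12. Draxin, a secreted ligand of Dcc, was higher by 2.84 to 3.43. Slitrk6, a membrane protein needed for hearing, was higher at day 8 by 5.06 ± 0.19 in Dox+RA iHCs and 4.90 ± 0.19 in Dox iHCs. The Slitrk6 gap was narrower at day 12, where control EBs read 7.69 and 7.49, after 5.29 and 4.72 at day 8. Day 12 arrays of Slitrk6 read 8.80, 8.98 and 9.40 in Dox+RA iHCs and 9.54, 9.70 and 9.50 in Dox iHCs. Of the effectors, 13 were higher and 14 lower in Dox+RA iHCs and 12 and 13 in Dox iHCs at day 12, and 14 and 10 and then 12 and 10 at day 8. In the same order these are 34.2% and 36.8%, 31.6% and 34.2%, 36.8% and 26.3%, and 31.6% and 26.3% of the list, beside the same shares of all genes, and the lists were not tested against them. Crmp1 and Dpysl5, relatives of the collapsin response mediator that relays Sema3a signals, were higher by 2.56 to 3.44 and 2.38 to 3.75. Vav2, an exchange factor activated by Eph receptors, was higher by 2.50 ± 0.16 and 2.02 ± 0.16 at day 12, and Srgap2, named as a slit-robo effector, was lower, with differences of -2.11 ± 0.31 and -1.71 ± 0.31.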

How the data were processed

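Each of 16 RNA samples was hybridised to 1 Affymetrix Mouse Gene 2.1 ST array. Per the submitters' processing notes, the authors ran RMA in Affymetrix Expression Console and deposited log2 values. Version, build and scan batches were not given in the sources used here. Deposited values ran from 1.44 to 12.3 and were used as deposited. RMA shrinks differences of weakly expressed genes, and no detection calls accompany the values. Of the 68 genes, 11 had a mean under 5 and are called dim. Precision is limited by the number of arrays.

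Of 33708 entries, 23521 carried 1 gene symbol, 1814 several and 8373 none, and 23328 were matched to RefSeq by Entrez ID. The symbol rule found 71 entries of 68 genes. Plxna1, Plxnb1 and Ephb1 had 2 entries each. Another 2 entries that share a netrin symbol with a second gene were not used. A mean per group was fitted to 22180 genes with lmFit, contrasts.fit and eBayes of limma 3.58.1 in R 4.3.3, with 12 contrasts (9 differences, 3 interactions). The script was tested on simulated data. Tables were made in pandas 2.3.3 (Python 3.11.15) and figures in matplotlib 3.10.9.

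The submitters call the samples biological replicates from independent RNA preparations, and p-values measure the spread between these samples. Replicate arrays correlated at 0.982 to 0.995. After group means were taken out, iHC arrays with the same replicate number correlated at 0.147 to 0.513 in all 18 pairs and those with other numbers at -0.41 to 0.201, so the numbers were taken to pair the iHC samples, from the data and not from the labels. Same-numbered pairs that include a control EB array correlated at 0.0259 to 0.179, so the data back their pairing only weakly. The block still gave control EB arrays the terms of their numbers, and not every number has a control EB array. Blocked results that involve control EBs, time changes included, therefore rest on this weakly backed pairing. The main design has no block, and blocked values stand beside results they change.

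Genes, lists and tests were chosen with earlier results of these data known. Array values are given for the 12 highest and 12 lowest genes by mean difference among those called the same way in all 4 comparisons with control EBs, up to 5 called genes a direction for RA and time, up to 4 for each interaction, genes called in opposite directions, and Dcc, which was added after its values were seen. Of the other pathway genes up to 4 a list and comparison could be named. Alternatives were other scalings, entries, filters, weights, variance priors and sample sets, replicate blocks and leaving out each array.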

Additional observations from a re-analysis of the deposited data

Results flagged for a closer look

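The results listed are those where the time change (day 12 minus day 8) differed between iHCs and control EBs by limma's interaction test. Values are the change in iHCs minus the change in control EBs on the log2 scale. In Dox+RA iHCs the value was -2.46 for Epha3, -1.36 for Sema6a, -1.25 for Robo2, -1.18 for Epha5, -1.14 for Sema6d and -1.06 for Sema3e. In Dox iHCs it was -2.71 for Epha3, -2.55 for Robo1, -1.75 for Unc5c, -1.58 for Epha5, -1.53 for Sema3c, -1.49 for Sema6d, -1.06 for Robo2 and -0.97 for Sema3d. Epha3, Epha5, Robo2 and Sema6d were called in both. Each control EB group had 2 arrays, and the same control change enters both sets. With any 1 array left out, the calls of Epha3 in both, Epha5 in Dox iHCs and Robo2 in Dox+RA iHCs held. Leaving out 1 control EB array ended those of Epha5 and Sema3e in Dox+RA iHCs (adjusted p up to 0.0554 and 0.058) and of Robo1, Robo2, Sema6d and Unc5c in Dox iHCs (up to 0.0813, 0.0879, 0.0655 and 0.0956). Leaving out 1 control EB or iHC array ended those of Sema6a and Sema6d in Dox+RA iHCs (up to 0.163 and 0.209) and of Sema3c and Sema3d in Dox iHCs (up to 0.155 and 0.126).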

How the results depend on the processing

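Counts of guidance genes called against control EBs stayed within 1.5 times the reported count under all alternatives run, and over the array-wide ones 13 to 16 genes were higher and 19 to 23 lower in all 4 comparisons. Of the calls of guidance genes over the 12 contrasts, 175 held in every alternative run, 74 were lost in at least 1 and 0 reversed. The counts for RA, time and interactions moved more, and the cause was not tested. Shares of all genes called were not computed for the alternatives. RA day 12, higher: 1 as reported, 0 with arrays centred on the median or 0 with only the groups compared, 3 with array weights, 4 with the fixed and 2 with the random replicate block, and 0 to 2 with 1 array left out. RA day 12, lower: 5 as reported, 0 with only the groups compared, 10 with the fixed block and 0 to 7 with 1 array left out. RA day 8, higher: 2 as reported, 4 with quantile normalization, array weights or either block, and 2 to 4 with 1 array left out. RA day 8, lower: 9 as reported, 14 with the fixed block and 4 to 10 with 1 array left out. Dox+RA over time: 2 higher as reported, 1 with all entries tested, 4 with array weights, 5 with the fixed block and 0 to 2 with 1 array left out, and 7 lower, 12 with array weights and 2 to 7 with 1 array left out. Dox over time: 2 higher as reported, 0 with centring, all entries or only the groups compared, 4 with quantile normalization or without dim genes, 6 with array weights or the fixed block, 5 with the random block and 0 to 4 with 1 array left out, and 11 lower, 4 with only the groups compared and 5 to 15 with 1 array left out. Control EBs over time: 6 higher as reported, 1 to 3 with 1 array left out, and 0 lower, 1 with only the groups compared or the fixed block. Difference of RA effects: 0 higher, 1 with array weights and 0 to 1 with 1 array left out. Dox+RA against EB time change: 0 higher, 1 with weights or the random block, 2 with the fixed block and 0 to 1 with 1 array left out, and 6 lower, 11 with weights, 14 with the fixed and 10 with the random block and 2 to 9 with 1 array left out. Dox against EB time change: 0 higher, 2 with the fixed block and 0 to 2 with 1 array left out, and 8 lower, 16 with the fixed and 13 with the random block and 3 to 12 with 1 array left out. Over the 68 genes the fixed replicate block ended 2 calls and added 61, and it changed no other call. Those among them that involve control EBs rest on the weakly backed pairing of control EB with iHC arrays. Leaving out dim genes gave no value for the 11 dim ones. Low signal and 2 control arrays a day limit what small differences can show.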

Other observations

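Several guidance genes followed the replicate number across the 4 iHC groups. The array numbered 3 was the highest of its group in all 4 for 9 of the 68 genes (13.2%), where 5.74% of all genes were, and these were Dcc, Epha10, Ntn1, Plxna2, Plxnb2, Robo1, Sema4c, Sema4d and Sema5a. It was the lowest in all 4 for 6 (8.82%, against 6.02% of all genes), namely Efna5, Epha1, Epha8, Sema3g, Sema6b and Unc5b. The array numbered 1 was the highest for 4 genes (5.88%, against 3.23%) and the lowest for 7 (10.3%, against 3.99%). The array numbered 2 was the highest for 1 gene (1.47%, against 2.4%) and the lowest for 0 (0.0%, against 2.59%). Efna5 read 7.74, 7.55 and 7.10 in Dox+RA iHCs and 8.36, 7.92 and 7.27 in Dox iHCs at day 12, and 8.39, 8.23 and 6.96 and 8.30, 7.52 and 6.48 at day 8, where the third value of each is the array numbered 3. Unc5b read 7.98, 8.01 and 7.01 and 7.60, 7.52 and 6.95 at day 12, and 7.67, 7.49 and 6.54 and 7.24, 7.14 and 6.78 at day 8.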
